A study of Mus musculus with 4 samples.

Results

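The genes described here encode the chains of the T cell receptor complex that do not vary between clones. They are Ptcra, which encodes the pre-TCR α chain, Trac, Trbc1 and Trbc2, which encode the constant parts of the TCR α and β chains, and Cd3d, Cd3e, Cd3g and Cd247, which encode the CD3δ, CD3ε, CD3γ and ζ chains. They were chosen by symbol, as 8 of the 32285 genes of the count matrices, and were followed across thymocyte stages that were set by other genes and between the genotypes. All 8 were detected.

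In the thymus, a precursor that has rearranged its β chain gene pairs that chain with the invariant pre-TCR α chain, and the resulting pre-TCR drives a burst of division and the passage from the CD4- CD8- double-negative (DN) to the CD4+ CD8+ double-positive (DP) stage. After the burst, the α chain locus is rearranged, the α chain takes the place of the pre-TCR α chain, and cells whose αβ receptor binds self ligands with suitable strength are selected and become CD4 or CD8 single-positive (SP) cells. The pre-TCR and the αβ receptor lack signalling tails of their own. They signal through the CD3 chains and ζ, which carry the tyrosine motifs that the kinase Lck phosphorylates.

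Thymocytes of mice aged 6 to 8 weeks were profiled with the 10x Genomics 3′ kit, version 3, which counts transcripts as unique molecular identifiers (UMIs). The 2 control libraries carried the genotype Tox4;F/F (titled Tox4 WT) and the 2 cKO libraries Tox4;F/F;Lck+, so that floxed Tox4 alleles were shared by all 4, and Cre, driven by the proximal Lck promoter, was present in the cKO libraries alone. In these alleles loxP sites flank exons 4 to 6 of Tox4, and the study describes the deletion as starting from the DN3 stage. Tox4 encodes a nuclear DNA-binding protein, and the comparison asks which stages of T cell development respond to its loss. The mice were gender-matched littermates on a C57BL/6 background, and per the study control and cKO mice were analysed as 2 pairs, so the 2 libraries of a group stand for separate mice. That libraries with the same replicate number form a pair is not stated in the sources used here.

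The matrices held 57354 cells and 204258388 UMIs, with 42716798 to 62007453 UMIs per library, and 33414 cells passed the filters. Cells over the limit of 10% mitochondrial UMIs made up 48.3 and 46.1% of the libraries numbered 1 (control, cKO) and 20.6 and 23.1% of those numbered 2. Pairs of libraries shared 36 to 70 cell barcodes. The 3′ reads of Tox4 lie outside the deleted exons and do not check the labels, and its level in DPre cells, 78.0 and 82.4 CPM in control 1 and 2 against 64.8 and 65.6 CPM in cKO 1 and 2 (log2 fold change -0.26, adjusted p = 0.260, edgeR), did not pass the test.

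Cells were clustered without the 8 genes and without the other TCR α and β genes, and 28619 cells (85.6%) fell into 6 αβ stages named from markers, each name standing for "X-like". They were DN (630 cells, Il2ra, Hes1), dividing DP blasts (DPbla, 3431 cells, Mki67, Top2a), rearranging DP cells (DPre, 16654 cells, Rag1), DP cells with signs of selection (DPsel, 5502 cells, Cd5, Egr1, Nr4a1, Itm2a), CD4SP (1614 cells, Ccr7, S1pr1) and CD8SP (788 cells, Nkg7, Ctsw). The DN cluster also expressed Tcrg-C1 and Tcrg-C2, constant genes of the γ chain, among its 10 leading genes. The CD8SP cluster scored 2.88 on its own marker list and 2.51 on that of CD4SP (mean log2 level above the other clusters). Igfbp4, Ccr7, Klf2 and S1pr1 were among its leading genes. Its DPbla markers summed to 652 and 1191 CPM in control 1 and 2 and to 1460 and 1256 CPM in cKO 1 and 2. Of these 9 markers, 6 were higher in both cKO libraries. In CD4SP they summed to 194 to 289 CPM. Depth differed between stages, with median UMIs per cell of 7697 to 10013 in DN, 7841 to 9977 in DPbla, 2208 to 3092 in DPre, 2938 to 4488 in DPsel, 4234 to 6065 in CD4SP and 6191.5 to 9609.5 in CD8SP over the 4 libraries. Levels are therefore given as CPM (the counts scaled to the same total in each sum) of the cells summed per library and stage, and shares of cells after each cell had been thinned to 1000 UMIs. Stages come from the same cells as the levels, so differences between stages are described without a test.

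On GRCm38 (GENCODE M21), Ptcra lies at chr17:46755663-46763712 on the minus strand, Trac at chr14:54220521-54224206 on the plus strand and Cd247 at chr1:165788681-165877277 on the plus strand. Trbc1 (chr6:41538218-41539881) and Trbc2 (chr6:41546730-41548352) lie on the plus strand with 6849 bases between them. Cd3g (chr9:44969572-44980431, minus strand) and Cd3d (chr9:44981786-44987339, plus strand) point away from each other with 1355 bases between their start sites, and Cd3e (chr9:44998740-45009627, minus strand) follows 11401 bases beyond Cd3d. The positions cover whole genes, exons and introns included.

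The β constant genes are near copies, which bears on every value given for them. Exon 1 differed at 1 of 375 bases (99.7% identity), and 91.3% of its 30-base windows were the same in both genes. The coding bases of exons 2 to 4, at chr6:41539114-41539662 in Trbc1 and chr6:41547610-41548178 in Trbc2, differed at 22 of 143 bases (84.6% identity), and no 30-base window of this stretch or of the part after the stop codon was shared. Reads from the 3′ end can thus be told apart by sequence, and reads from exon 1 mostly cannot. The stretch that separates the genes is shown for the plus strand, with the differing bases in capitals.
Trbc1: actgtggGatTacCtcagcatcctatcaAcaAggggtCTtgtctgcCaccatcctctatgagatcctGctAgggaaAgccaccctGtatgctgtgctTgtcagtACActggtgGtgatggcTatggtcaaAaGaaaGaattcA
Trbc2: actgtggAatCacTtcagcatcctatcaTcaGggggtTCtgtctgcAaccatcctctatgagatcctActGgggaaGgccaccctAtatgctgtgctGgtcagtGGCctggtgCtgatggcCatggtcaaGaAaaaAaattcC

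The 250 bases upstream of the start site are given for Ptcra, whose level fell most between stages, and for the divergent pair Cd3g and Cd3d, whose levels parted at the DN stage (RefSeq, GRCm38.p6, 5′ to 3′ on the gene's own strand; 5 of the 8 genes matched, not Trac, Trbc1 and Trbc2). Capitals mark E-boxes, the motif CANNTG that E proteins such as Tcf3 and Tcf12 bind. CANNTG reads the same on both strands, and CAGCTG is 1 form of it.
Ptcra (chr17:46763713-46763962, minus strand): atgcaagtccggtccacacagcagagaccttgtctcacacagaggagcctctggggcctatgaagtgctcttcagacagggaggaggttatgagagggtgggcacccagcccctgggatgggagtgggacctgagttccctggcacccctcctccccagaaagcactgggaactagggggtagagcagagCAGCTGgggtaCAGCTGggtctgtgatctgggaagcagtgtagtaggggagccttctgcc
Cd3g (chr9:44980432-44980681, minus strand): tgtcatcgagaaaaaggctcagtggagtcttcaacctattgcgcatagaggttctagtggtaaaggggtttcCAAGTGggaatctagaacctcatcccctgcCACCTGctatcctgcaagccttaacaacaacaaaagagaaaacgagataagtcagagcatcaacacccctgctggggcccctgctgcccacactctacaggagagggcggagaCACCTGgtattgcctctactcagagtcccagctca
Cd3d (chr9:44981536-44981785, plus strand): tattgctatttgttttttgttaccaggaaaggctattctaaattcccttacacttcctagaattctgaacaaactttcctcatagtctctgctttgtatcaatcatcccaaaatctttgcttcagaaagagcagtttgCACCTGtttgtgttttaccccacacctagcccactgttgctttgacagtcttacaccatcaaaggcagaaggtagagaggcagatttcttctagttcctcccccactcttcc
Ptcra held 2 matches of CANNTG, a number reached by 31.8% of 32851 promoters. Both were CAGCTG, and 1.26% of promoters reached that number of CAGCTG matches. Cd3g held 3 matches of CANNTG, a number reached by 12.2% of promoters. Cd3d and Cd3e held 1 each and Cd247 held 2, while 66.2% of all promoters held at least 1 match of CANNTG and 13.0% at least 1 of CAGCTG.

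Ptcra was highest in DN cells and fell along the stages. In DN it stood at 333, 289, 242 and 198 CPM in control 1, control 2, cKO 1 and cKO 2 (mean 266 ± 58.4, SD, n = 4), and in DPbla at 110, 71.6, 106 and 61 CPM. DPre cells held 75.7, 55.6, 61.8 and 44.5 CPM, and DPsel cells 8.27, 5.18, 8.01 and 7.87 CPM. The ranges of DN and DPbla did not overlap, with a ratio of means of 3.04, and neither did those of DPre and DPsel, with a ratio of 8.10. DPbla and DPre overlapped over the libraries, although DPbla was the higher in each of the 4. From DPsel on, Ptcra was near the level of cells outside the αβ lineage: the means of 7.33 CPM in DPsel, 5.97 in CD4SP and 4.0 in CD8SP rested on 161, 51 and 27 UMIs and compare with 14.6 CPM in cells of the mononuclear phagocyte system (MPS), 6.79 CPM in B cells, on 4 UMIs, and 3.13 CPM in γδ T cells, on 6 UMIs.

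Trac took the opposite course. DN cells held 57.4, 62.9, 58.3 and 53.5 CPM, less than the 129 CPM in B cells and 136 CPM in MPS cells. MPS cells are far shallower, with medians of 837 to 993.5 UMIs, so CPM does not place Trac in DN against background. As UMIs, DN held 37, 69, 83 and 137 in 68, 108, 149 and 305 cells (control 1, control 2, cKO 1, cKO 2). MPS cells held 39, 30, 63 and 50 in 173, 126, 409 and 220 cells. Per cell, DN thus held more than MPS cells in each library. Erythroid cells held 45.9 CPM, on 26 UMIs. Blasts held 236, 224, 197 and 167 CPM, DPre cells 596, 641, 523 and 488 CPM and DPsel cells 1162, 1191, 980 and 965 CPM. Each of these steps in CPM separated the libraries without overlap, with ratios of the stage means of 3.55 from DN to DPbla and 2.73 from DPbla to DPre. CD4SP cells held a mean of 949 CPM and CD8SP cells 743 CPM, and the order DPsel, CD4SP, CD8SP, DPre held in all 4 libraries, although DPsel overlapped CD4SP and CD8SP overlapped DPre. Across the 24 sums of library and stage, Ptcra and Trac correlated at r = -0.90 on log2(CPM + 5), a description of points that share libraries and depth. Counted per cell, without correction for the higher UMI totals of the blasts, Trac did not rise from DPbla (2.2, 2.03, 1.99 and 1.38 UMIs per cell) to DPre (1.90, 1.79, 1.58 and 1.15), while Ptcra fell on both scales. The γδ T cells, which use other chains, held 454 CPM of Trac, above the B and MPS levels, and 3.13 CPM of Ptcra. Their cluster also had Nkg7 and Klrd1, markers of the CD8SP list, among its leading genes.

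**Figure D1:**
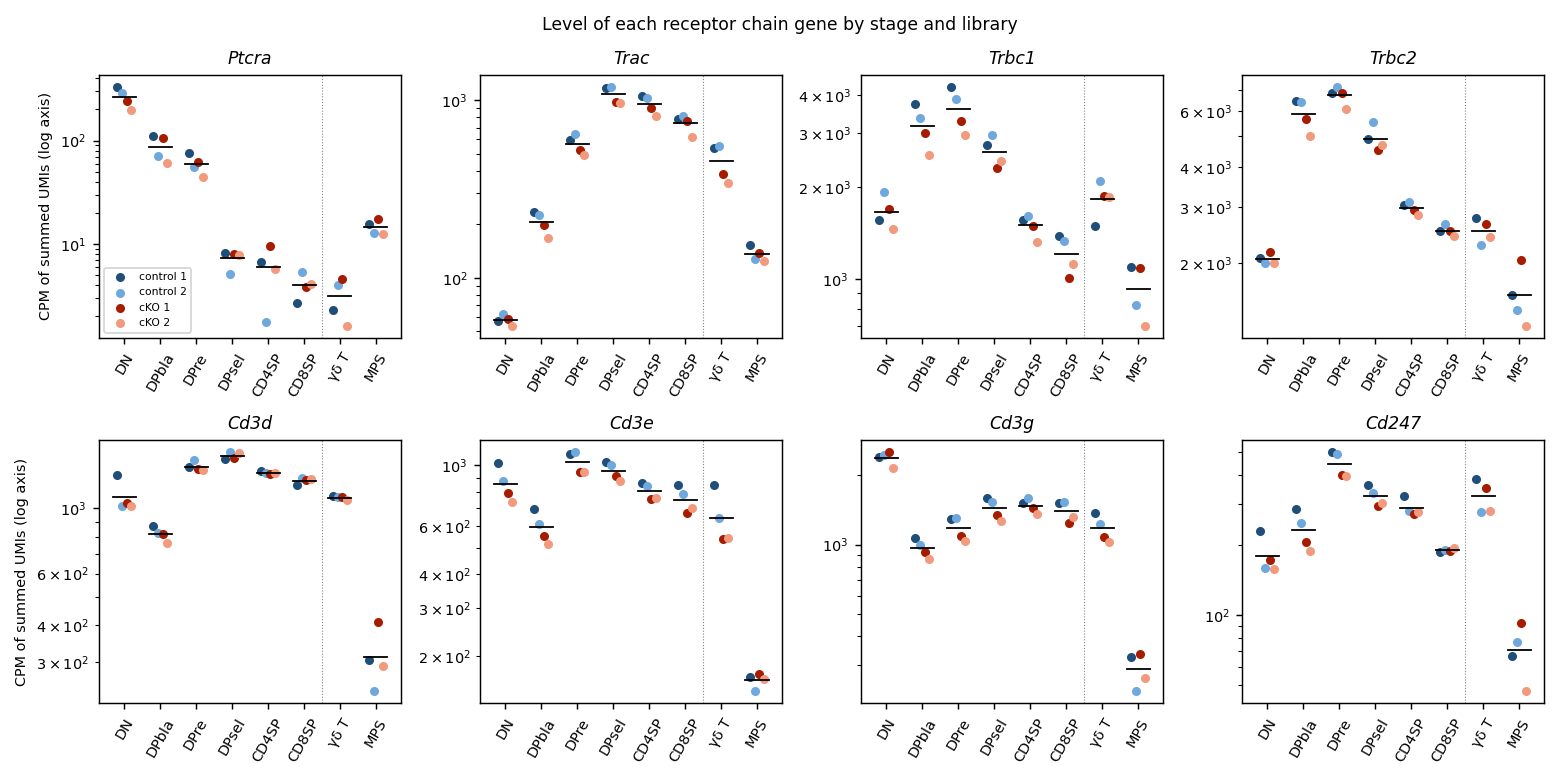
Level of each gene (CPM of summed UMIs, log axis) in the 6 αβ stages and, right of the dotted line, in γδ T and MPS cells. Points are the 4 libraries and bars their mean. Ptcra falls from 266 CPM in DN to 7.33 CPM in DPsel while Trac rises from 58.0 to 1074 CPM, and Cd3g is highest in DN.

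The share of Ptcra within the pair fell most between DN cells and the dividing blasts. Of the Ptcra and Trac UMIs of thinned cells, Ptcra made up 90, 82.1, 83.7 and 82.8% in DN (control 1, control 2, cKO 1, cKO 2), 28.6, 23.6, 28.4 and 22.9% in DPbla and 10.5, 7.93, 10.5 and 7.95% in DPre. From DPsel on the share stayed at or under 1.05% in every library. Control 2 had 0 Ptcra UMIs in thinned CD4SP cells, which allows up to 0.779%, and cKO 1 had 0 in CD8SP cells, which allows up to 1.81%. These limits cover counting error only.

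The blasts themselves fell into clusters that differed in both genes. The cluster led by Pclaf, Hells and Cdc6, genes of DNA replication, held means of 117 CPM of Ptcra and 141 CPM of Trac, the cluster led by Mki67 and Top2a 76.6 and 217 CPM, and the cluster led by Cenpf and Cdc20, genes of mitosis, 55.7 and 327 CPM. Without thinning, the Ptcra share was 49.2, 36.9, 53.0 and 39.6% in the first, 29.7, 21.8, 28.6 and 22.7% in the second and 17.8, 12.2, 15.7 and 12.3% in the third. The order of the clusters was thus the same in each library. In the first cluster Trac, at 164, 160, 125 and 115 CPM, overlapped the levels of B and MPS cells, which are shallower, and lay above DN cells, which are of similar depth, without overlap. The large DPre clusters held less, 12.9, 9.03, 13.1 and 10.2% in the cluster led by Slc7a11 and 10.4, 7.38, 8.36 and 7.34% in the cluster led by Gm38405 and Xrra1. In all of the blast clusters and in both of these DPre clusters, the libraries numbered 1 held a higher share than those numbered 2. They also did so for the share of cells over the mitochondrial limit. The part of cell quality in this was not tested.

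Few thinned cells held UMIs of both genes. Cells with Ptcra and no Trac made up 27.9, 24.1, 20.8 and 17.0% of DN, 7.97, 5.63, 7.06 and 4.73% of DPbla and 3.77, 3.12, 3.96 and 2.73% of DPre. Cells with Trac and no Ptcra made up 19.1, 18.3, 17.8 and 15.7% of DPbla, 39.1, 41.0, 36.1 and 34.2% of DPre and 65.1, 64.9, 60.6 and 57.4% of DPsel. Both genes were found in 1.20, 0.844, 1.95 and 0.502% of DPbla and in 2.81, 2.24, 2.10 and 1.36% of DPre, and most of the remaining cells held neither at this depth. As background, a Ptcra UMI was found in 0 to 3.70% of thinned MPS cells and 0 to 3.23% of B cells, so shares in DPsel and SP cells, 0 to 1.15%, are at background, while 17.4 to 29.4% of DN cells, 5.23 to 9.16% of DPbla and 4.09 to 6.59% of DPre were above it. MPS cells had median depths of 837 to 993.5 UMIs and B cells of 2884 to 5079 UMIs before thinning. For Trac the background was 8.51 to 13.6% of MPS cells and 2.94 to 25.8% of the 25 to 38 thinned B cells per library. The 3.93 to 5.56% of DN cells with Trac were below the MPS range and within the B cell range. The 16.2 to 20.3% of DPbla were above the MPS but not the B cell range.

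In DPre at 1000 UMIs, cells with and without Ptcra held Trac at similar rates. Among DPre cells with a Ptcra UMI, 42.7, 41.7, 34.6 and 33.3% also held Trac, against 41.9, 43.3, 38.4 and 35.6% of those without. At 2000 UMIs the rates were 60.4, 58.8, 50.4 and 52.4% against 62.8, 64.2, 58.1 and 53.2%, lower with Ptcra in each library. In unthinned DPre cells, both cKO libraries went the other way. In DPbla at 1000 UMIs the rates were 13.0, 13.0, 21.6 and 9.59% against 21.1, 19.5, 19.5 and 16.6%, lower with Ptcra in all libraries but cKO 1. These differences were not tested. Without thinning, cells with at least 5 UMIs of the pair could be placed by their own ratio. Of such blasts, 66.9, 53.5, 66.7 and 54.5% held both genes, 27.7, 45.0, 28.0 and 42.1% held Trac alone and 5.38, 1.55, 5.38 and 3.45% held Ptcra alone. Of such DPre cells, 34.2, 19.7, 33.9 and 20.4% held both and none held Ptcra alone, and in DPsel the share with both was 3.60 to 5.45%. Of such DN cells, whose Trac was not placed against background, 31.4 to 61.9% also held both. A mixed cell by this count is thus not shown to express both genes. The cells used were the deeper ones, 130 of 502 blasts in control 1 for example.

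**Figure D2:**
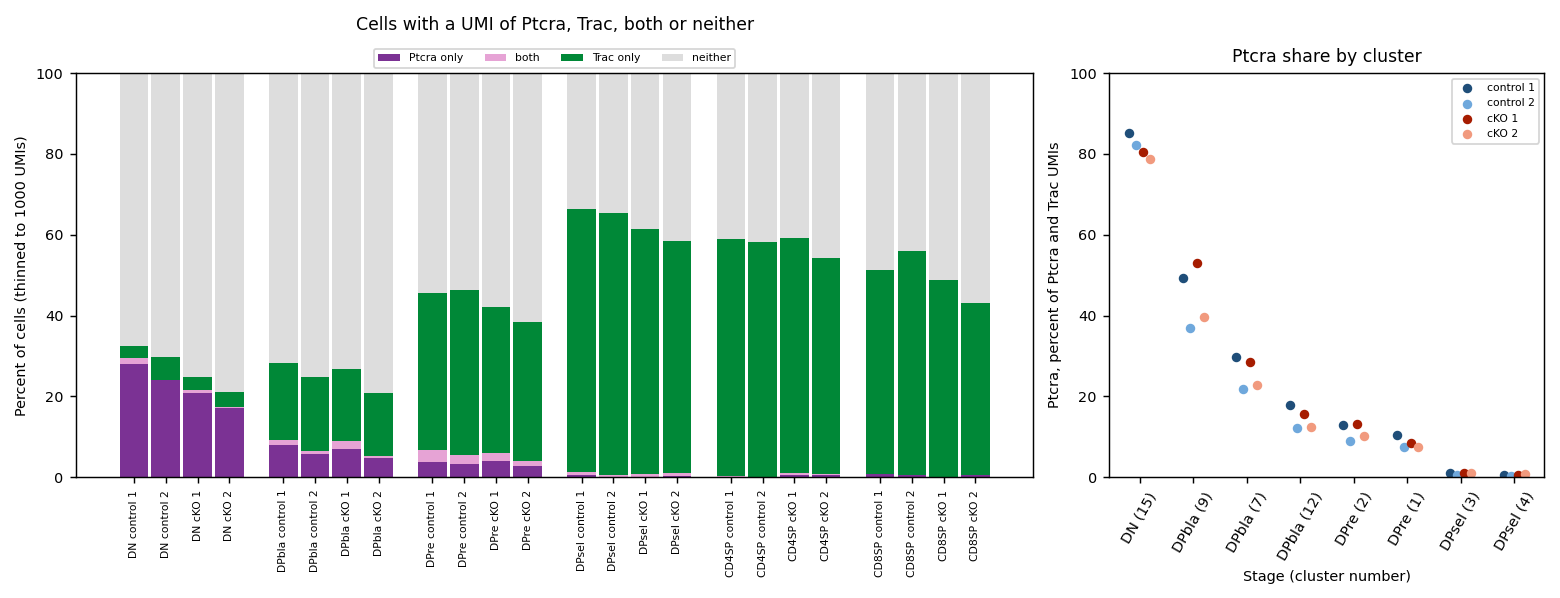
Left, percent of cells thinned to 1000 UMIs with a UMI of Ptcra, Trac, both or neither, 1 bar per library and stage. Right, Ptcra as percent of Ptcra and Trac UMIs in single clusters without thinning, 1 point per library. Ptcra makes up 78.7 to 85.3% in DN, steps down through the 3 blast clusters, and is near 0 in DPsel.

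The Ptcra share of the pair overlapped between the genotypes in the blasts and in DPre, and the share of cells with Trac alone had a lower mean in cKO. The Ptcra share averaged 26.1% ± 3.55 in control and 25.7% ± 3.90 in cKO blasts (SD, n = 2 each) and 9.24% ± 1.85 against 9.22% ± 1.80 in DPre. The share of DPre cells with Trac and no Ptcra was 40.1% ± 1.36 in control and 35.1% ± 1.36 in cKO, and in DPsel 65.0% ± 0.150 against 59.0% ± 2.30, without overlap in either stage. In DPbla and CD8SP both cKO libraries also lay below both control libraries in this share, while DN overlapped. In CD4SP it was 58.63 and 58.27% in control 1 and 2 against 58.25 and 53.57% in cKO 1 and 2, so control 2 and cKO 1 were nearly level. Over 36 such comparisons, β chain usage included, the exact permutation test (two-sided, 2 against 2) gave no p below 0.33, the smallest it can reach, and no adjusted p below 0.667.

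Trbc1 and Trbc2 were detected from DN on, and their CPM was highest by mean in DPre. Trbc2 stood at 2084, 1997, 2177 and 2002 CPM in DN (control 1, control 2, cKO 1, cKO 2), at 6441, 6422, 5674 and 5031 CPM in DPbla and at 6848, 7174, 6847 and 6120 CPM in DPre. Trbc1 stood at 1563, 1925, 1691 and 1458 CPM in DN and at 4255, 3879, 3275 and 2946 CPM in DPre. Both fell again in DPsel, to means of 2606 CPM for Trbc1 and 4919 CPM for Trbc2, and in SP cells, to 1496 and 2984 CPM in CD4SP and 1209 and 2535 CPM in CD8SP. Within DPsel, the cluster led by Cd5 and Egr1 held means of 3846 and 7108 CPM, within the range of the DPre clusters. The clusters led by Itm2a and by Tnfrsf9 held 2294 and 4323 CPM and 1558 and 3111 CPM. DPre and DPbla overlapped for both genes, and the blast cluster led by Cenpf and Cdc20 held more of both (means of 4474 CPM of Trbc1 and 7836 CPM of Trbc2) than any DPre cluster. Per cell, Trbc2 was higher in DPbla, at 60.2, 58.2, 57.3 and 41.7 UMIs, than in DPre, at 21.8, 19.98, 20.6 and 14.4 UMIs. In CPM, DPsel was above CD4SP without overlap for both. The background was higher than for the other chains. MPS cells, which do not carry the receptor, held 1271 to 2047 CPM of Trbc2 and 701 to 1095 CPM of Trbc1 over the libraries, and B cells 730 to 1282 CPM and 342 to 737 CPM. In CPM, Trbc2 in DN thus overlapped the level of MPS cells and lay above that of B cells, and Trbc1 in DN lay above both. As UMIs, DN held 11757 of Trbc2 in 630 cells, against 2189 in 928 MPS cells and 724 in 145 B cells. MPS cells are far shallower, so the overlap in CPM does not place Trbc2 in DN at background. Of the γδ T cells thinned to 1000 UMIs, 71.7 to 89.6% held Trbc2, at a mean of 2535 CPM, beside 58.1 to 74.5% of the MPS cells.

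The share of Trbc1 in the β constant UMIs was highest in DN. It was 42.9, 49.1, 43.7 and 42.1% in DN, 36.7, 34.4, 34.6 and 33.6% in DPbla, 38.3, 35.1, 32.4 and 32.5% in DPre and 35.8, 34.8, 33.8 and 34.0% in DPsel. CD4SP cells held 33.9, 34.1, 33.6 and 31.9%, CD8SP cells 35.4, 33.4, 28.5 and 31.5%, and γδ T cells 34.9, 47.6, 41.2 and 43.3%. The 4 DN values thus lay above all values of the other αβ stages. In DPre, DPsel, CD4SP and CD8SP both cKO libraries lay below both control libraries, with a difference of the means in DPre of -4.28 percentage points (exact permutation p = 0.33, the smallest possible). Of cells with at least 5 β constant UMIs, 70.0 to 82.1% in DN and 40.3 to 58.7% in the later αβ stages held between 20% and 80% Trbc1. Cells with over 80% Trbc1 were fewer, at 1.92 to 3.47% in DN and 2.43 to 6.27% in the later stages, than cells with under 20%, at 14.9 to 26.8% and 37.5 to 54.1%. How reads from the shared exon 1 were assigned is not given in the sources used here, so these shares are those of the deposited counts.

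**Figure D3:**
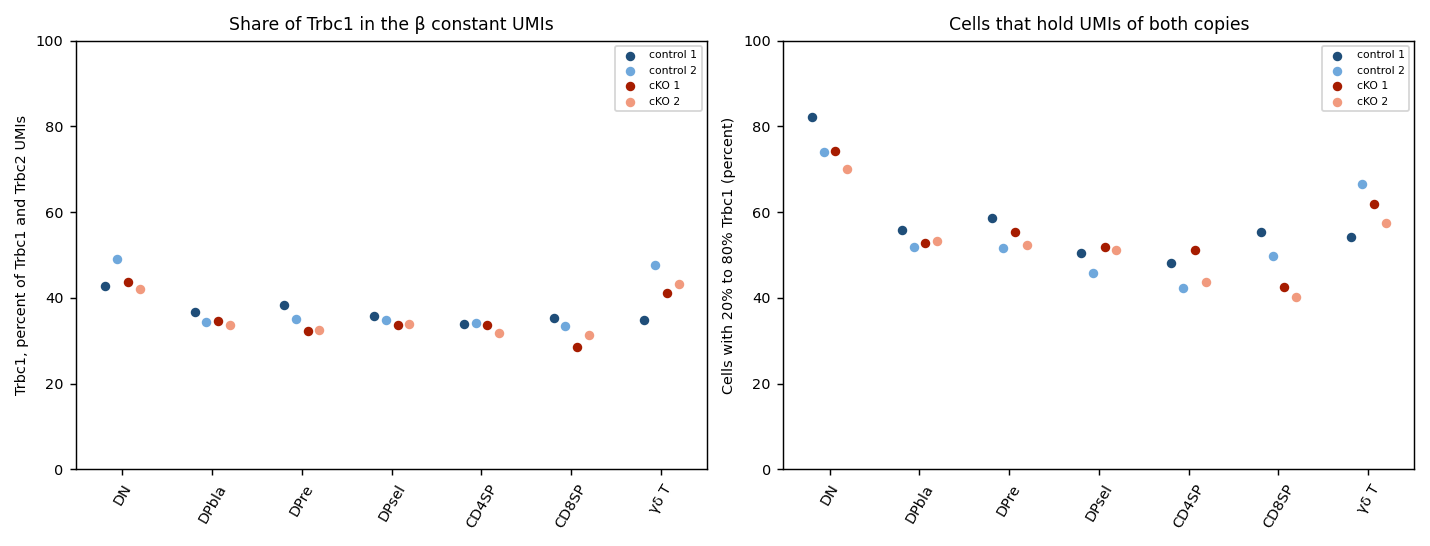
Left, Trbc1 as percent of Trbc1 and Trbc2 UMIs per library and stage. Right, percent of cells with at least 5 such UMIs in which Trbc1 makes up 20% to 80%. The DN libraries lie at 42.1 to 49.1% on the left, above the other αβ stages, and at 70.0 to 82.1% on the right.

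The CD3 chains did not follow 1 course. Cd3g stood at 2416, 2446, 2534 and 2155 CPM in DN (control 1, control 2, cKO 1, cKO 2) and at 1073, 995, 929 and 862 CPM in DPbla, its highest and lowest stages. It then rose to means of 1180 CPM in DPre, 1436 in DPsel and 1478 in CD4SP, and DN was above each other stage without overlap (ratio to CD4SP of 1.62). Cd3d, its divergent neighbour, was also lowest in DPbla, at 870, 825, 817 and 760 CPM, but was highest in DPsel, at 1475, 1559, 1481 and 1541 CPM. DN held 1296, 1017, 1041 and 1019 CPM of Cd3d, above DPbla without overlap and below DPre, CD4SP and DPsel in each library. Cd3e was lowest in DPbla too, with a mean of 593 CPM ± 77.5 (SD, n = 4), and ranged from 749 CPM in CD8SP to 1027 CPM in DPre, with neighbouring stages overlapping throughout. In CPM the 3 CD3 genes thus shared their lowest mean, in the blasts, and not their highest. In UMIs per cell all 3 were instead lowest in DPre in each library, at 4.42, 4.06, 4.09 and 3.18 for Cd3d against 8.13, 7.47, 8.25 and 6.30 in DPbla.

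Cd247, which encodes ζ, the chain with the most tyrosine motifs of the complex, was highest in DPre in CPM. It stood there at 501, 491, 397 and 393 CPM, above the next stage, DPsel, at 362, 335, 292 and 303 CPM, without overlap (ratio of means 1.38). In DN it stood at 229, 159, 173 and 157 CPM and in CD8SP at 187, 190, 187 and 194 CPM, the lowest means, which overlapped. In UMIs per cell the order turned, with DPre lowest in each library (1.60, 1.37, 1.20 and 0.927) and DPbla highest (2.66, 2.24, 2.08 and 1.56). Within the blasts its mean was 177 CPM in the cluster led by Pclaf, Hells and Cdc6 and 398 CPM in the cluster led by Cenpf and Cdc20. Cd3d, Cd3e and Cd3g were ordered the same way between these blast clusters, at 745, 515 and 853 CPM against 1191, 793 and 1420 CPM. Background in MPS cells was 311 CPM for Cd3d, 164 for Cd3e, 288 for Cd3g and 70.6 for Cd247.

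Over the 24 sums, Cd3d and Cd3e were the pair of CD3 chains most alike (r = 0.81), while Cd3d and Cd3g reached 0.23 and Trbc1 and Trbc2 0.91. Trbc2 went with Cd247 (r = 0.74) and against Cd3g (r = -0.74). Among 6077 other genes with a mean of at least 20 CPM, those most like Ptcra were Prss57, Fkbp5, Cmtm7, Idh2 and Ly6d, with r from 0.94 to 0.96. Among the 5 most like Trac were Itgb2, which encodes a chain of leukocyte integrins, Arhgdib, 1110008P14Rik and Ankrd44, with r from 0.97 to 0.99. For Trbc1 they were Ppp2ca, Rcbtb2 and Sh2d1a, for Trbc2 Lrrc42, Ccnd3, which encodes cyclin D3, and Ntrk3, for Cd3d Tet2, Glipr1 and Cd37, for Cd3e Sdf2, Araf and Smim14, for Cd3g Gpx1, Gpi1 and Prkca, and for Cd247 Ccnt2, Znrf1 and Chfr, with r from 0.92 to 0.98. These correlations describe 24 points that share libraries, depth and the stage clusters.

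Between the genotypes, most of the 8 genes had a slightly lower estimate in cKO in every stage, and none passed the test (edgeR quasi-likelihood, adjusted over all genes tested; DESeq2 also called 0 in every stage). With the replicate number as a block, which follows the study's 2 pairs if the numbers name them, 2, 3, 4, 1, 1 and 1 of the 8 genes passed in DN, DPbla, DPre, DPsel, CD4SP and CD8SP, all lower in cKO, beside 1.56%, 10.3%, 9.17%, 2.87%, 1.44% and 0.382% of all genes. In DPbla and DPre all 8 estimates were below 0, with medians of -0.23 and -0.25 on the log2 scale against 0.00 over all genes tested. In 7 of 8 genes in each of these stages both cKO libraries lay below both control libraries, where 28.6% of the 10753 genes tested in DPbla and 28.4% of the 11734 in DPre did so. The genes called in either direction were 2.56% of those tested in DPbla (275) and 1.68% in DPre (197). Unadjusted p was under 0.05 for 4 of the 8 genes in DPbla and 5 in DPre, against 16% and 14.9% of all genes.

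In the blasts the ζ chain gene Cd247 had the largest estimate of the 8 genes, with 285 and 247 CPM in control 1 and 2 against 206 and 188 CPM in cKO 1 and 2. Its log2 fold change was -0.38 (SE 0.10, edgeR adjusted p = 0.0691), and without cKO 1 it passed the test at -0.45 (adjusted p = 0.0293), as it did with the block (adjusted p = 0.00102). Trac and Trbc1 also passed with the block (adjusted p = 0.0188 and 0.0176). Without it, the estimates for Trac and Trbc1 were -0.29 (SE 0.11, adjusted p = 0.190) and -0.31 (SE 0.12, adjusted p = 0.230). Trbc2, Cd3e and Cd3g had estimates of -0.22, -0.24 and -0.16, and Cd3d of -0.05. Ptcra overlapped between the groups, and its estimate of -0.07 (SE 0.21) depended on single libraries: it was -0.51 without cKO 1 (adjusted p = 0.0226), 0.23 without control 1 and 0.28 without cKO 2.

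In DPre the largest estimate was that of Trbc1, with the levels given above, at -0.35 (SE 0.09, edgeR adjusted p = 0.0811). Without cKO 1 it was -0.44 and passed the test (adjusted p = 0.00368), and with the block adjusted p was 0.000144 for Trbc1, 0.00458 for Cd247, 0.0145 for Trac and 0.0133 for Cd3g. Without the block, Cd247 followed at -0.29 (SE 0.09, adjusted p = 0.126), Trac at -0.25 (SE 0.09, adjusted p = 0.209) and Cd3g, at 1292 and 1303 against 1088 and 1038 CPM, at -0.25 (SE 0.09, adjusted p = 0.184). Trbc2 and Cd3d had estimates of -0.07 and -0.03, with approximate 95% intervals (from the SE) from -0.25 to 0.11 and from -0.20 to 0.14, so a fall as large as the estimate of Trbc1 lay outside both intervals. For Ptcra, at 75.7 and 55.6 against 61.8 and 44.5 CPM, the estimate was -0.27 (SE 0.16, adjusted p = 0.487) and the groups overlapped.

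**Figure D4:**
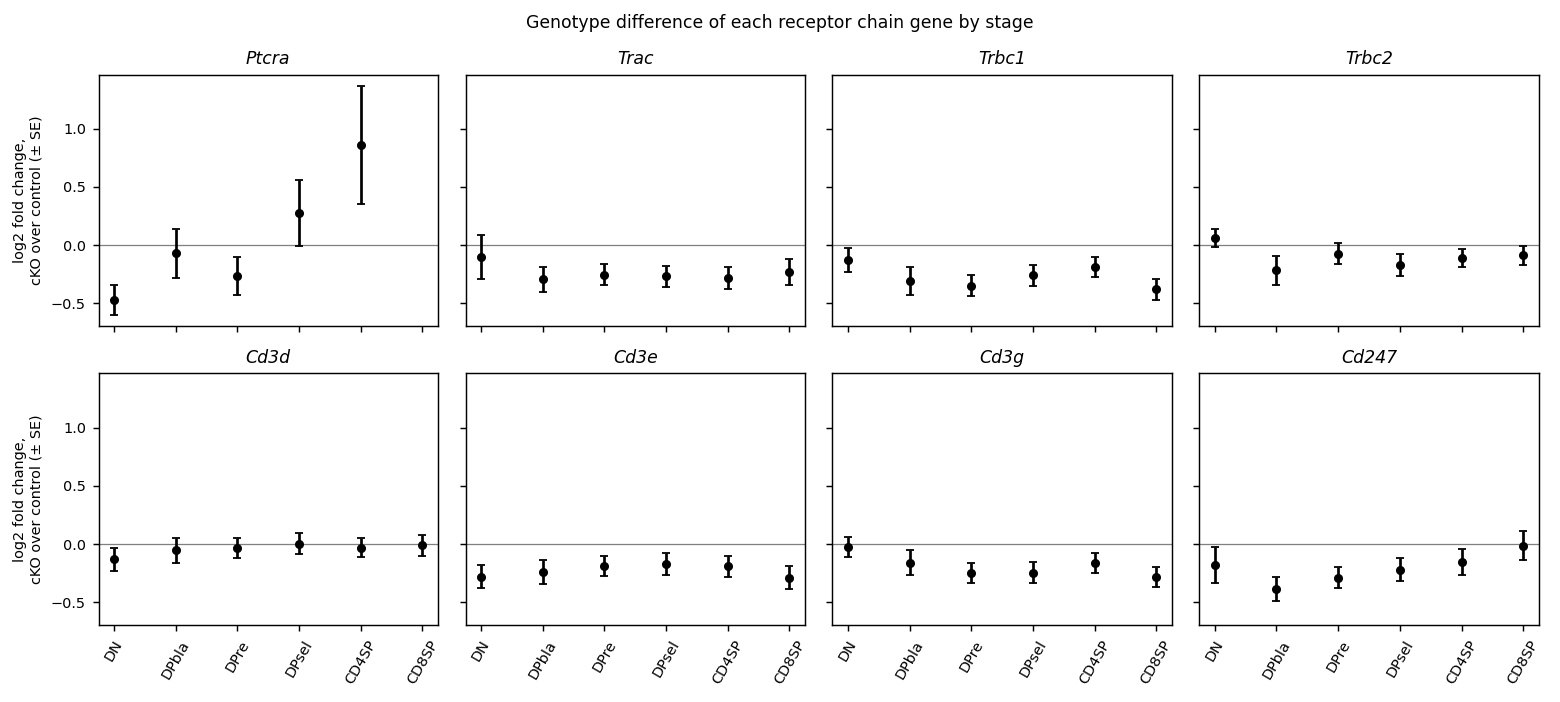
Estimated log2 fold change of each gene, cKO over control, per stage, with bars of 1 approximate SE from edgeR (2 libraries per group). Estimates for Trac, Trbc1, Cd3e and Cd3g lie at or below 0 in all stages, Cd3d lies between -0.13 in DN and 0.00 in DPsel, and Ptcra in DPsel and CD4SP, where its counts are few, has wide errors. Ptcra was not tested in CD8SP.

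In the DN stage, Ptcra had the largest estimate of the 8 genes, at -0.47 (SE 0.13, edgeR adjusted p = 0.313), with both cKO libraries (242 and 198 CPM) below both control libraries (333 and 289 CPM). Cd3e was the only other gene of the 8 without overlap, at 1019 and 872 against 791 and 731 CPM (-0.28, adjusted p = 0.485). That made 2 of 8, beside 20.9% of the 8734 genes tested, and 0.0229% of genes (2) were called. The erythroid markers Hba-a1, Hba-a2, Hbb-bs and Hbb-bt (4 of 6 markers; Alas2 was at 0) summed to 509 CPM in the DN cells of cKO 1 and to 3.10 to 19.9 CPM in the other DN libraries, and without cKO 1 the estimate for Ptcra was -0.61. With the block, Ptcra and Cd3e passed (adjusted p = 0.00447 and 0.0375). The DPbla markers were higher in both cKO libraries than in both control libraries of DN for 9 of 9 genes, with sums of 340 and 343 CPM in control 1 and 2 against 737 and 647 CPM in cKO 1 and 2, and Ptcra is lower in DPbla than in DN. Their part in the Ptcra estimate was not tested. Unadjusted p was under 0.05 for these 2 genes, and for 7.64% of all genes.

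After the DN and blast stages, Trac had estimates of similar size: -0.27 in DPsel (edgeR adjusted p = 0.383), -0.28 in CD4SP (0.338) and -0.23 in CD8SP (0.776). Its levels in CD4SP were 1051 and 1022 CPM in control 1 and 2 against 906 and 816 CPM in cKO 1 and 2. Trbc1 in CD8SP, at 1380 and 1328 against 1006 and 1122 CPM, reached -0.38 (SE 0.09, adjusted p = 0.268). In DPsel 6 of 8 genes, in CD4SP 7 of 8 and in CD8SP 4 of 7 tested were lower in both cKO libraries than in both control libraries, beside 19.9% of 10803, 17.1% of 9103 and 16.8% of 8645 genes. The genes called were 0.111%, 0.231% and 0.0347% of those tested (12, 21 and 3), and unadjusted p was under 0.05 for 4 of 8, 3 of 8 and 3 of 7 tested genes and for 8.58%, 7.87% and 6.59% of all genes. The medians of the genes tested were -0.19, -0.16 and -0.23. With the block, Trac passed in DPsel and CD4SP (adjusted p = 0.0447 and 0.0243) and Trbc1 in CD8SP (adjusted p = 0.0350). Cd3d differed least, with estimates between -0.03 and 0.00 in these stages, and Cd247 in CD8SP had an estimate of -0.01 with an interval from -0.25 to 0.23. Ptcra went the other way in DPsel and CD4SP, on 161 and 51 UMIs, and its groups overlapped. Its cKO means were 118% and 180% of the control means, with log2 intervals from -0.28 to 0.83 and from -0.13 to 1.85. Summed MPS markers in the αβ stages were 118 to 294 CPM in control and 150 to 252 CPM in cKO libraries, and their part in the values of the 8 genes was not tested.

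Because cell quality followed the replicate number, the ratio of cKO to control was also taken within each number. In DPbla and in DPre 8 of 8 genes were lower in cKO in both numbers, beside 39.4% and 38.7% of all genes tested, with medians of -0.23 for number 1 and -0.30 for number 2 in DPbla and of -0.23 and -0.32 in DPre. In DPsel this held for 6 of 8, in CD4SP for 7 of 8, in CD8SP for 4 of 7 and in DN for 3 of 8 genes, beside 29.8%, 25.7%, 24.3% and 30.3% of all genes. The makeup of the blasts differed as well, since the replication cluster led by Pclaf held 27.9, 32.0, 38.2 and 40.3% of the blasts of control 1, control 2, cKO 1 and cKO 2. Within that cluster, both cKO libraries were below both control libraries for 7 of 8 genes, within the Mki67 cluster for 6 and within the Cenpf cluster for 4, beside 27%, 21.7% and 18.7% of the genes tested in DPbla. Cd247 differed by -0.40, -0.35 and -0.28 (log2 of the ratio of means) in these clusters, and Trac by -0.44, -0.24 and -0.06. Within the 3 main DPre clusters the count was 7, 7 and 5 of 8, beside 28.3%, 23.2% and 18% of the genes tested in DPre.

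Whether the genotype difference varied between stages was tested in 1 model over the 24 sums, with library and stage as terms. Over all genes 2.01% of 11644 passed, and none of the 8 genes did. Cd247, whose estimates ran from -0.38 in DPbla to -0.01 in CD8SP, came nearest (edgeR adjusted p = 0.262), followed by Ptcra (edgeR adjusted p = 0.362). For the other 6 genes adjusted p was 0.461 or more.

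Of 56 further genes of receptor signalling, recombination and control of the receptor loci, 7 passed the test in DPbla, 3 in DPre and none in the other stages, beside 2.56% of all genes in DPbla and 1.68% in DPre. In DPbla 4 were lower in cKO. Cd8a, which encodes the α chain of the CD8 coreceptor that brings Lck to the complex, stood at 1541 and 1189 CPM in control 1 and 2 against 902 and 755 CPM in cKO 1 and 2 (-0.67, edgeR adjusted p = 0.0134). Cd8b1, its β chain, fell by 0.48 on the log2 scale (adjusted p = 0.0419). Rasgrp1, which links the receptor to Ras, was also lower (-0.46, adjusted p = 0.0257) and is named here after its value was seen. Higher in cKO were Notch1, whose signal induces Ptcra in DN cells (0.56, adjusted p = 0.0132), and the γ chain constant genes Tcrg-C1 (4.91 and 4.65 against 11.8 and 9.50 CPM, adjusted p = 0.0175) and Tcrg-C2 (2.56 and 5.12 against 11.9 and 9.76 CPM, adjusted p = 0.0146). Both lead the DN cluster, whose cells made up 1.20 and 1.28% of control 1 and 2 against 2.04 and 2.54% of cKO 1 and 2. In the blasts 4 of 8 DN markers were higher and 1 was lower in both cKO libraries. The sum of all 8 was 9.60 and 10.9 CPM in control against 15.6 and 15.4 CPM in cKO. The part of DN RNA in the γ chain values was not tested. In DPre Cd8a fell by 0.55 on the log2 scale (edgeR adjusted p = 0.0287), Notch1 rose by 0.89 (adjusted p = 0.00183) and Fcer1g, a ζ-related signalling chain, stood at 4.78 and 4.44 against 7.44 and 10.6 CPM (adjusted p = 0.0490). Fcer1g is also among the 10 leading genes of an MPS cluster. In DPre 3 of 7 MPS markers were higher in both cKO libraries (C1qa at 10.7 and 9.42 against 14.0 and 15.8 CPM) and 1 was lower in both. The sum of all 7 was 240 and 233 against 246 and 252 CPM. The part of MPS RNA was not tested. The proximal kinases and adaptors, among them Lck, Zap70 and Lat, held 1 call among 16 genes in DPbla, that of Rasgrp1, and 0 in DPre, and their median estimates were -0.09 and 0.04. The 3 recombination genes Rag1, Rag2 and Dntt had no call, with median estimates of -0.36 in DPbla and -0.04 in DPre.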

How the data were processed

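The study profiled thymocytes in 4 libraries, 2 control and 2 cKO. The authors deposited raw UMI counts per gene and cell, 1 filtered matrix per library, which they made with Cell Ranger on mm10, without normalization or pooling. The 8 genes, the gene lists and the tests were chosen with earlier results of these data known.

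After the study's filters, cells with under 200 genes, with UMI totals in the top or bottom 2.5% of their library or with over 10% mitochondrial UMIs were left out, and the 5% of cells with the highest Scrublet score were removed. Counts were scaled to 10000 UMIs per cell. The 3000 most variable genes, without the 8 genes and the other TCR α and β genes, gave 30 principal components, and 20 neighbours were clustered with Leiden at resolution 1 (scanpy 1.11.5, leidenalg 0.10.2). Clusters were named from marker lists and otherwise stayed unnamed (3378 cells). Of these, 1785 dividing cells with a median of 872 UMIs were left out of DPbla by a rule on UMIs set after the clusters were seen; they made up 3.42, 3.72, 7.73 and 5.94% of control 1, control 2, cKO 1 and cKO 2.

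Counts were summed per library and stage (at least 30 cells each) and tested with edgeR 4.0.16 in R 4.3.3 (quasi-likelihood, TMM, filterByExpr, genotype as the term, Benjamini-Hochberg over all genes tested in a stage, called at an adjusted p under 0.05). The test was checked on simulated counts. Standard errors are approximate, from the log2 fold change and the root of its F value. Cells were thinned to 1000 UMIs for shares of cells, and the 410, 387, 1060 and 924 shallower cells of control 1, control 2, cKO 1 and cKO 2 were left out. Library values were compared with an exact permutation test. Replicates differed by more than sampling noise (chi-square per degree of freedom of 5.80 in control and 6.93 in cKO), so none was counted as a duplicate.

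Named were the 8 genes, the 5 genes (Ptcra, Trac) or 3 genes (others) most like each by Pearson's r of log2(CPM + 5) over the 24 sums, up to 3 called genes per direction and stage of a list of 56 pathway genes, and Tox4; a few genes that these rules or the marker lists include are not reported here by name. Alternatives were DESeq2 1.42.0, its size factors, no filter on low counts, the replicate number as a block, each library left out, a mitochondrial limit of 5%, no doublet removal, clustering with the TCR genes, gates on marker UMIs in place of clusters, and thinning to 2000 UMIs or none. Counting the low-UMI dividing cluster as DPbla was added after seeing the data.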

Additional observations from a re-analysis of the deposited data

Results flagged for a closer look

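The share of thinned cells with Ptcra and no Trac differed between the genotypes in opposite directions in different stages, without overlap of the libraries in either. In CD4SP it was 0, 0, 0.5 and 0.420% in control 1, control 2, cKO 1 and cKO 2, a difference of 0.460 percentage points, where 0 of 336 and 0 of 393 control cells allow up to 0.893% and 0.763%. In DN it was 27.9, 24.1, 20.8 and 17.0%, a difference of -7.08 percentage points, and in CD8SP 0.658, 0.543, 0 and 0.459%, a difference of -0.371 percentage points, where 0 of 234 cells in cKO 1 allow up to 1.28%. Without thinning, the share in CD4SP was 0 in all 4 libraries, in CD8SP it was 0, 0, 0 and 0.459%, and in DN it was 48.5, 54.6, 52.3 and 42.3%, so that the groups overlapped. The difference between the stages was not tested. The CD4SP and CD8SP shares lay within the 0 to 3.70% of MPS cells with a Ptcra UMI, so the DN shares alone were above it.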

How the results depend on the processing

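With the replicate number as a block, the genes called numbered 136, 1108, 1076, 310, 131 and 33 in DN, DPbla, DPre, DPsel, CD4SP and CD8SP, and of the 8 genes 2 were called in DN (Ptcra and Cd3e), 3 in DPbla (Trac, Trbc1, Cd247), 4 in DPre (Trac, Trbc1, Cd3g, Cd247), 1 in DPsel (Trac), 1 in CD4SP (Trac) and 1 in CD8SP (Trbc1), all lower in cKO. The study analysed 2 pairs of control and cKO mice, all mice being littermates, but the sources used here do not say that the replicate numbers name the pairs. The deviations of same-numbered libraries correlated at 0.117, 0.286, 0.296, 0.226, 0.132 and 0.0462 in the same order of stages. Without the filter on low counts 73, 610, 593, 174, 4 and 72 genes were called, with 1 of the 8 genes in DPbla (Cd247), 1 in DPre (Trbc1) and 1 in CD8SP (Trbc1). DESeq2 called 19 genes in DPsel and 7 in CD4SP. A mitochondrial limit of 5% gave 66 in DPbla, 77 in DPre and 4 in CD4SP. It left DN with 4, 11, 26 and 55 cells and CD8SP with 44, 29, 132 and 65 (control 1, control 2, cKO 1, cKO 2). Not every library thus reached 30 cells there, and these stages were not tested. No doublet removal gave 8 in DN, 3 in DPsel, 35 in CD4SP and 28 in CD8SP, and clustering with the TCR genes 5 in DN. Gates on marker UMIs, which held 8.25 to 39.6% of the cells of each stage, gave 21 in CD8SP, 8 in CD4SP, 3 in DPbla, 37 in DPre and 27 in DPsel, had too few cells in DN, and left 5 of the 8 genes with the same lowest and 6 with the same highest stage (Trac moved from DPsel to CD4SP and Cd3g from CD4SP to CD8SP). Without doublet removal, and with the TCR genes kept, the lowest stage of Cd247 moved from DN to CD8SP. The cause of these shifts was not tested.

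Some estimates changed sign. For Cd3d in DPsel it became -0.00072 with DESeq2 size factors, -0.00074 with DESeq2, -0.0065 without the filter and -0.026 with gates, for Cd3d in DPbla 0.0081 and in CD4SP 0.017 at 5% mitochondrial UMIs, in CD4SP 0.0081 with gates and in CD8SP 0.0091 with the TCR genes kept. With gates, Ptcra became 0.088 in DPbla and -0.13 in DPsel, and Trbc1 0.14 in CD4SP. The Ptcra share, cKO minus control, became 2.86 (no thinning), 1.36 (2000 UMIs), 1.61 (5% limit) and 4.74 (gates) in DPbla, 0.181 (2000 UMIs), 0.0181 (TCR genes kept), 0.295 (gates) and 0.0579 (no doublet removal) in DPre, and 0.0875 (no thinning) and 2.30 (gates) in CD8SP. The Trbc1 share became 5.44 in CD4SP and 0.974 in CD8SP with gates and 0.00872 in DPsel at the 5% limit. Cells with Ptcra only became 1.32, 1.26 and 0.755 in DPbla, DPsel and CD8SP with gates, 0.0637 and 0.229 in DPsel and CD8SP without thinning, 0.176, 0.0813 and 0.216 in DPbla, DPsel and CD8SP at 2000 UMIs and 0.32 in DPre at the 5% limit. Cells with Trac only became 3.92 in DN and 1.02 in DPbla without thinning and 0.493 in DN at 2000 UMIs. Cells with both became -4.44 and -0.264 in DPbla and DPsel without thinning, -1.27 and -0.151 there at 2000 UMIs, -1.10 in DPsel with gates and -0.309 in CD4SP without doublet removal. Cells with neither became -0.0310 in CD4SP at the 5% limit.

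Where 1 library was left out, the lone library of its group was assumed to vary like those of the other group. Leaving out each library in turn gave 0 to 29 genes called in DN, 203 to 552 in DPbla, 196 to 355 in DPre, 0 to 139 in DPsel, 1 to 78 in CD8SP and 30 to 80 in CD4SP, and 0 to 2 of the 8 genes in DPbla and 0 to 1 in DPre. Log2 estimates whose sign changed ranged in DN from -0.43 to 0.061 for Cd247, -0.29 to 0.034 for Cd3d, -0.14 to 0.095 for Cd3g, -0.16 to 0.00071 for Trac and -0.28 to 0.055 for Trbc1. They ranged from -0.021 to 0.00065 for Cd247 and -0.048 to 0.034 for Cd3d in CD8SP, from -0.082 to 0.012 for Cd3d and -0.17 to 0.012 for Trbc2 in DPre, from -0.048 to 0.051 for Cd3d and -0.043 to 0.61 for Ptcra in DPsel, and from -0.51 to 0.28 for Ptcra in DPbla. The Ptcra share ranged from -6.78 to 1.16 in DN, -3.17 to 2.35 in DPbla, -1.32 to 1.29 in DPre and -0.0920 to 0.466 in DPsel, and the Trbc1 share from -6.14 to 0.0711 in DN. Cells with Ptcra only ranged from -2.07 to 0.272 in DPbla, -0.721 to 0.511 in DPre and -0.346 to 0.113 in DPsel, with Trac only from -2.07 to 0.540 in DN, with both from -0.971 to 0.4995 in DN and -0.518 to 0.929 in DPbla, and with neither from -0.651 to 4.40 in CD4SP and -0.276 to 5.59 in DPbla. Of 359 estimates for the 8 genes under settings that keep all libraries, 333 kept their direction and their side of the threshold, and the added DPbla with the low-UMI cluster kept all 8.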
